A study of Mus musculus with 23 samples.

Results

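The genes described here encode the core of the spliceosome and the SR proteins that guide it. They were taken from the deposited FPKM table by their symbols: Lsm1 to Lsm8, all symbols beginning with Snrp or U2af, Snrnp, Prpf and Srsf symbols that go on with a number, and Sf3a1 to Sf3a3 and Sf3b1 to Sf3b6 as far as the table lists them. Snrpn, an imprinted gene, was left out by the rule. This gave 62 of the 24506 entries of the table, of which 61 passed a filter on low values (1 FPKM or more in 2 or more libraries) that 13776 entries passed in all. The one that did not pass was Srsf12, which was at 0.461 FPKM or less in each of the 23 libraries. FPKM is the number of sequenced fragments of a gene scaled to its length and to the library's total, so it allows levels to be compared between genes. Between libraries it is relative to each total, and some comparisons below changed with rescaling.

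The spliceosome removes introns from new transcripts. It is built from small nuclear RNAs, each wrapped in proteins to form a small nuclear ribonucleoprotein (snRNP). The U1, U2, U4 and U5 RNAs carry a ring of Sm proteins and the U6 RNA a ring of the related Lsm proteins; U1 marks the start of an intron, U2 its branch site, and the U4/U6.U5 particle then joins to form the active enzyme. A rarer class of introns is recognised by the U11/U12 particle of the minor spliceosome, and SR proteins bind exons and recruit the machinery to them. Growing oocytes transcribe and splice actively, fully grown ones are nearly silent, and the mouse embryo lives on stored maternal RNA until its own genome is switched on, mainly at the 2-cell stage.

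Mouse oocytes and embryos that had or lacked maternal Cxxc1 were compared. Its product, CFP1, binds unmethylated CG dinucleotides and belongs to the SETD1 complexes, which place methyl groups on histone H3 lysine 4. Wild-type germinal vesicle (GV) oocytes, which rest in the first meiotic prophase, came from females of 3 weeks and of 3 months. Deletion oocytes came from Cxxc1 fl/fl females carrying Zp3-Cre at 3 weeks, a driver active in growing oocytes, or Gdf9-Cre at 3 months, a driver active earlier in oocyte life. Embryos at the zygote and 2-cell stages had either wild-type mothers mated to wild-type males or mothers that were Cxxc1 fl/fl Zp3-Cre and mated to wild-type males, so that embryos of the latter group inherit an intact paternal Cxxc1 allele. The labels name no strain, and no female age for the embryos. There were 8 groups of 3 libraries each, apart from the wild-type 2-cell group with its 2. Cre driver and age changed together between the GV groups, and their effects cannot be told apart. Whether replicate libraries came from separate animals is not stated, and p-values therefore reflect the spread between libraries alone, possibly technical.

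The column totals of FPKM ran from 295901 to 420415, and 56 to 61 members reached an FPKM of 1 in each library. The number of reads per library was not given; the spacing of the lowest values put relative depth between 0.415 and 1.21 of wild-type 3-week oocyte library 2, so small differences of weakly expressed members were not resolved. Cxxc1 was at 9.94 to 41.5 FPKM in wild-type libraries and at 0.626 to 4.16 in deletion libraries. All 15 oocyte markers were present in every GV library. Deletion 2-cell library 3 stood apart: its correlation with libraries 1 and 2 of its group was 0.942 and 0.936, against 0.983 between those. It also held 21 of 24 granulosa and cumulus cell markers at 1 FPKM or more (summed FPKM 294.3), among them the steroidogenic enzyme Cyp11a1 at 82.3 FPKM. Counts of members called in comparisons that use it are also given without it.

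**Figure D1:**
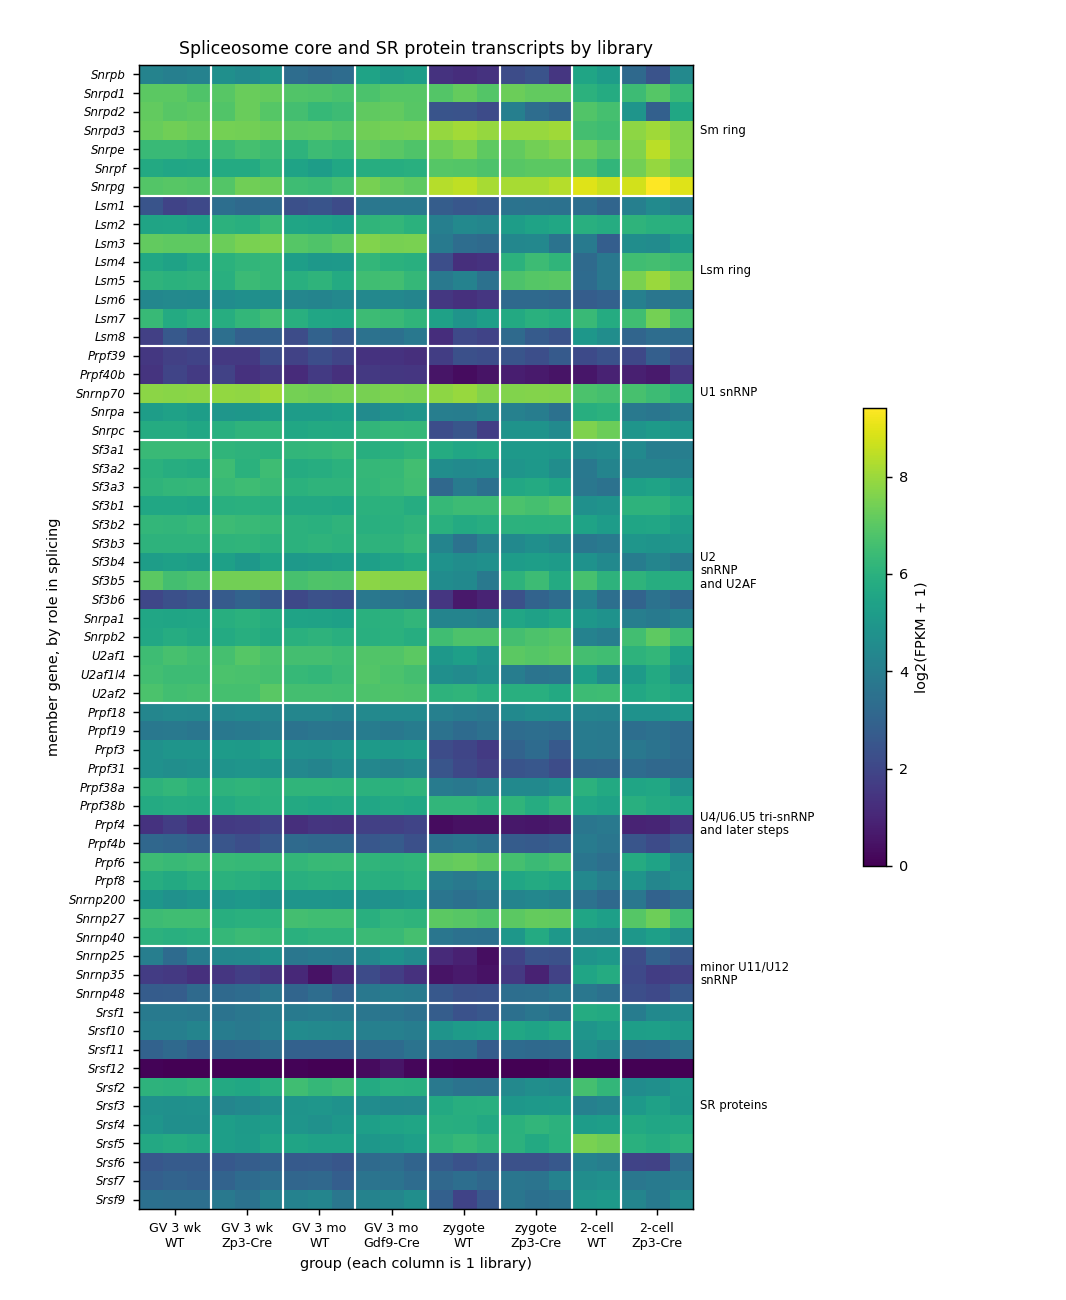
Heat map of log2(FPKM + 1) for 61 of the 62 members (rows, by role) in the 23 libraries (columns, by group). Snrpg is the brightest row in the embryos, at up to 678 FPKM, and Srsf12 is dark throughout, at 0.461 FPKM or less.

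In wild type, most members had lower FPKM in zygotes than in 3-week GV oocytes, and many were high again in 2-cell embryos. Differences were tested with limma on log2(FPKM + 1) in 1 fit of all 23 libraries; log2 fold changes are on that scale, which understates the change of low genes. A member was called higher or lower at a Benjamini-Hochberg adjusted p under 0.05 over all 13776 genes. From GV oocyte to zygote 38 of 61 members fell and 17 rose, where 50.7% of all genes tested fell and 19.4% rose. The median log2 fold change was -0.84 for the members and -0.47 for all genes. In bulk libraries, fewer cells of a type and less RNA per cell cannot be told apart, and the count depended on scaling: under median-of-ratios scaling 29 members were lower and 27 higher, and with quantile normalization 28 and 23. These scalings moved the median of all genes by 0.42 and 0.55. Of all genes, 36.5% were lower and 33.7% higher under the first, and 32% and 37.5% under the second. In all 3 versions 26 members were lower and 17 higher. The share of all genes called the same way in all 3 versions was not counted, here or below. Markers moved over the same step: of 15 oocyte markers 13 fell and 1 rose as deposited (median log2 fold change -3.25, summed FPKM 15190 to 15460 in oocytes and 6003 to 6949 in zygotes). Of 19 tested granulosa and cumulus markers 9 fell and 2 rose (summed FPKM of all 24 listed markers 156.6 to 170.6 in oocytes and 77.15 to 85.92 in zygotes). Serpine2 made up most of both granulosa sums, at 93.7, 97.4 and 92.9 FPKM in oocytes and 60.9, 48.2 and 54.5 FPKM in zygotes. The part of the oocyte and granulosa markers in the members' changes was not tested.

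The Sm ring genes split into 2 groups on the way to the zygote. Snrpg, the Sm gene with the highest FPKM in the embryo groups but not in wild-type 3-week oocytes, was at 117, 123 and 117 FPKM in GV oocytes and at 326, 366 and 289 FPKM in zygotes. The zygote values were all above the oocyte values (log2 fold change 1.44 ± 0.152 SE, adjusted p = 4.14e-08). Snrpd3, Snrpe and Snrpf also rose, by log2 fold changes of 0.72, 1 and 1.23, while Snrpd1 did not pass (0.04, adjusted p = 0.836). Snrpd2 went the other way, from 142, 125 and 130 FPKM in oocytes to 4.46, 4.27 and 3.46 FPKM in zygotes. No oocyte value came near the zygote values (log2 fold change -4.72 ± 0.411 SE, adjusted p = 2.43e-09). Snrpb, whose product is the largest Sm protein, fell with it, from 17.7, 15.6 and 17.1 to 1.6, 1.32 and 1.63 FPKM (log2 fold change -2.82). Of the 7 Sm genes 4 rose and 2 fell, the same counts as with quantile normalization; under median-of-ratios scaling 5 were higher and 2 lower.

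The Lsm genes mostly fell. Lsm2 to Lsm7 were lower in zygotes, Lsm1, whose product belongs to the cytoplasmic Lsm ring that takes part in mRNA decay, was higher (log2 fold change 0.54), and Lsm8, which marks the nuclear ring, did not pass (-0.45, adjusted p = 0.136). Under median-of-ratios scaling Lsm7 turned to 0.05, and 5 Lsm genes were lower and 1 higher under both scalings. Lsm4 was at 48.2, 41.5 and 51.6 FPKM in oocytes and at 3.73, 1.41 and 1.58 FPKM in zygotes (log2 fold change -3.96 ± 0.192 SE, adjusted p = 3.23e-13). Lsm3 dropped from 139, 134 and 135 FPKM to 13.3, 9.34 and 8.51 FPKM. Lsm5 dropped from 68.2, 62.6 and 66.3 FPKM to 12.8, 16.9 and 10.5 FPKM. The groups did not overlap for any of the 3.

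Among U1 genes, Snrpc, which encodes the U1 C protein that helps U1 pair with the start of an intron, was at 53.8, 54.1 and 47.8 FPKM in oocytes and at 3.62, 4.68 and 2.38 FPKM in zygotes (log2 fold change -3.57). Snrnp70, the U1-70K protein gene, did not pass (0.04, adjusted p = 0.731) and stayed the U1 gene with the highest level, at 221, 247 and 201 FPKM in zygotes. Of 14 genes for U2 proteins and the U2AF branch, 12 fell and 2 rose as deposited, against 8 and 5 under median-of-ratios scaling and 9 and 2 with quantile normalization. The largest falls were those of Sf3a3 (log2 fold change -2.68), Sf3b5 (-2.51) and Sf3b3 (-2.1), subunits of the SF3 complexes that hold U2 at the branch site. Snrpb2, which encodes the U2B'' protein, rose from 48.6, 55.4 and 49.7 to 91.8, 109 and 110 FPKM, and Sf3b1, the largest SF3B subunit, rose by 0.83.

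Genes of the U4/U6.U5 particle and later steps fell in 9 of 13 cases and rose in 4, against 7 and 6 under each of the other scalings. Prpf3 and Prpf31, both U4/U6 proteins, fell by 2.95 and 2.6 on the log2 scale, and Prpf8, the protein at the heart of the active site, fell from 56.4, 52.1 and 58.4 to 15.1, 13.1 and 15.7 FPKM. Prpf6, which bridges U5 and U4/U6, rose from 86.9, 81.8 and 86.3 to 142, 148 and 130 FPKM. All 3 minor spliceosome genes fell as deposited, but only Snrnp25 was lower in all 3 scalings. Snrnp35 lost its call with quantile normalization. It had low values, at 2.19, 1.94 and 1.47 FPKM in oocytes and 0.414, 0.585 and 0.375 FPKM in zygotes. Snrnp48 turned to 0.29 under median-of-ratios scaling and 0.63 with quantile normalization. The call of Snrnp48 was lost without wild-type 3-week oocyte library 3 (log2 fold change -0.32, adjusted p = 0.106). Of 10 SR genes 5 rose and 3 fell, against 7 and 2 under median-of-ratios scaling and 7 and 1 with quantile normalization. Srsf3, one of the smallest SR proteins, rose from 26.2, 25.4 and 25.9 to 52.1, 57.9 and 60.3 FPKM, and Srsf2 fell from 67.4, 65.5 and 69.6 to 13, 11.1 and 10.7 FPKM.

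From zygote to 2-cell embryo 33 wild-type members rose and 15 fell, where 44.5% of all genes rose and 24% fell, with medians of 0.43 for the members and 0.31 for all genes. Under median-of-ratios scaling 26 rose and 21 fell and with quantile normalization 27 and 24, with all-gene medians moved by -0.22 and -0.53. Of all genes, 38.8% rose and 32.7% fell under the first scaling, and 32% and 41.8% under the second. The 2 members with the largest rise were Snrpc and the minor spliceosome gene Snrnp35, which encodes a U11/U12 protein. Snrpc went from 3.62, 4.68 and 2.38 FPKM in zygotes to 191 and 157 FPKM in 2-cell embryos (log2 fold change 5.29 ± 0.156 SE, adjusted p = 6.06e-16). Snrnp35 went from 0.414, 0.585 and 0.375 FPKM to 44.9 and 53.7 FPKM (log2 fold change 5.11 ± 0.26 SE, adjusted p = 1.01e-12). Both 2-cell libraries were far above every zygote and every GV library for each of them. Snrnp35 overlaps Rilpl1 and Gm52789 in the RefSeq annotation, and since the strand of counting is not given in the sources used here, its reads and theirs cannot be told apart. Overlaps with other genes held for 17 of the 61 tested members, Snrnp35 included, with the same limit; the others were Lsm1, Snrpd3, Snrpf, Snrpa, Prpf39, Prpf40b, Sf3a3, Sf3b3, Sf3b4, U2af1l4, Prpf31, Prpf38a, Prpf4b, Srsf2, Srsf4 and Srsf9.

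Other members with low FPKM in zygotes rose too. Snrpd2 rose from 4.46, 4.27 and 3.46 to 114 and 97.2 FPKM, and Snrpb from 1.6, 1.32 and 1.63 to 45.8 and 35.5 FPKM (log2 fold changes 4.4 and 4.04). Snrnp25, another U11/U12 protein gene, rose from 1.17, 0.828 and 0.264 to 28.5 and 31.3 FPKM, and Prpf4, a U4/U6 protein gene, from 0.257, 0.344 and 0.332 to 12 and 12.9 FPKM. These 4 genes had higher values in both 2-cell libraries than in any wild-type zygote. Lsm8 rose by 3.06, from 1.34, 3.17 and 2.73 to 30.2 and 23.6 FPKM, and 5 other Lsm genes rose with it as deposited, while Lsm3 and Lsm5 did not pass; the other scalings gave 4 higher and 1 lower, and 5 higher and 2 lower. Of 10 SR genes 7 rose under all 3 scalings and 2 fell as deposited, against 3 under median-of-ratios scaling. Srsf1, a founding SR protein gene, rose from 5.77, 4.11 and 4.82 to 54.2 and 52 FPKM, and Srsf5, the SR gene with the highest FPKM at this stage, from 69, 78.9 and 68 to 180 and 165 FPKM.

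Prpf6 and Snrpb2 had the largest falls of the members over this step. Prpf6 fell from 142, 148 and 130 to 11.5 and 9.81 FPKM (log2 fold change -3.6 ± 0.215 SE, adjusted p = 1.01e-11). Snrpb2 fell from 91.8, 109 and 110 to 16.8 and 15 FPKM (log2 fold change -2.63). Srsf3, Sf3b1, Snrnp27 and Snrpd3 fell by 1.68, 1.61, 1.53 and 1.44 on the log2 scale. Each of these 6 genes had higher values in every wild-type zygote than in either 2-cell library. The groups did not overlap for any of the 48 members called over this step, so this adds nothing to the calls.

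Promoter sequences were read for 52 of the 62 members from RefSeq (build GRCm38.p6), as windows of 300 bases that run from 250 bases before to 50 bases after the start of the gene. Windows are shown for 2 members that rose at the wild-type 2-cell stage, Snrpc and Snrnp35, and for Lsm5 and Snrpb2, which were low there and high in deletion embryos, since CFP1 binds CG dinucleotides. CG dinucleotides, the only motif searched and the same on both strands, are in capitals. The windows lie at chr17:27839837-27840136 on the plus strand (Snrpc), chr5:124482905-124483204 on the plus strand (Snrnp35), chr6:56704650-56704949 on the minus strand (Lsm5) and chr2:143062819-143063118 on the plus strand (Snrpb2), and each is written 5′ to 3′ along its gene.
Snrpc: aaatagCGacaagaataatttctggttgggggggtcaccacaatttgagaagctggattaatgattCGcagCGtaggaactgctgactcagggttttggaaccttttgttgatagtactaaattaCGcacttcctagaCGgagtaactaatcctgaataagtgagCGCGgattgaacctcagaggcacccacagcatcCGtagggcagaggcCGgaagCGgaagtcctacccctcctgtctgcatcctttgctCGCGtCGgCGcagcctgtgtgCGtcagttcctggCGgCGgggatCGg
Snrnp35: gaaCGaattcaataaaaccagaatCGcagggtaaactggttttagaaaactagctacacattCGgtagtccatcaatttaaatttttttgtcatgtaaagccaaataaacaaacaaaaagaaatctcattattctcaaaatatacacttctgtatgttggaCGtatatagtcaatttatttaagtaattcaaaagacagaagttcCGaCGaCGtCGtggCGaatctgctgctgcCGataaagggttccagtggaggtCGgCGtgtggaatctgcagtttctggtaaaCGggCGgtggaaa
Lsm5: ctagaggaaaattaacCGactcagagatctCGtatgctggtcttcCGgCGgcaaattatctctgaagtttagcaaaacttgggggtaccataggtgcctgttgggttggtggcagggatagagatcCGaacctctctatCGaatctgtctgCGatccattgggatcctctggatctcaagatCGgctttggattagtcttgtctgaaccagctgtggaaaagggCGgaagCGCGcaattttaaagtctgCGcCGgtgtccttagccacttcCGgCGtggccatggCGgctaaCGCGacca
Snrpb2: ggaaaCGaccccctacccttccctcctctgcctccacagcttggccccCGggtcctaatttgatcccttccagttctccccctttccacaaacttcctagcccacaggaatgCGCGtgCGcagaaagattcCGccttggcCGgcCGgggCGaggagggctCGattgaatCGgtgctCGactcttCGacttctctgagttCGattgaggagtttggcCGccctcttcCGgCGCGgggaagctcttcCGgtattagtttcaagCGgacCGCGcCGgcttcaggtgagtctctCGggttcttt

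These windows held 18 CG dinucleotides for Snrpc, 14 for Snrnp35, 18 for Lsm5 and 24 for Snrpb2. Where a gene had several windows, the one with the most CG was used, for members and other genes alike. The members had a median of 24 (range 7 to 49), against 15 for 17492 coding genes. At least 10 CG were present in 51 of 52 member windows and in 59.5% of coding genes, and at least 1 in 95% of coding genes. Members lower in deletion 2-cell embryos had a median of 23.5 (22 windows), members higher there 22 (17 windows) and members not called 26.5 (12 windows). No binding or methylation was measured in these values, and the counts describe letters only.

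In GV oocytes the log2 fold changes of the members after Cxxc1 deletion ran from -0.55 (Prpf4b) to 1.17 (Lsm1) at 3 weeks and from -0.66 (Prpf39 and Prpf4b) to 1.95 (Snrpb) at 3 months. In 3-week Zp3-Cre oocytes 11 of 61 members were higher and 5 lower, where 18.3% of all genes were higher and 11.3% lower. The median log2 fold change was 0.17 for the members and 0.09 for all genes. Under median-of-ratios scaling 5 members were higher and 7 lower, with quantile normalization 8 and 7, and without wild-type library 2 only 6 were higher. Of all genes, 11.2% were higher and 13.5% lower under the first scaling, and 12.6% and 13.6% under the second. In 3-month Gdf9-Cre oocytes 30 members were higher and 10 lower, against 34.2% and 15.2% of all genes, with medians of 0.34 and 0.2. There the other scalings gave 12 higher and 11 lower, and 16 higher and 12 lower, with all-gene medians moved by -0.17 and -0.22. The all-gene shares were then 21% and 22.5%, and 20.5% and 23.5%. All 11 members higher at 3 weeks were among the 30 higher at 3 months (100% of the first list and 36.7% of the second), and all 5 lower ones among the 10 (100% and 50%), in separate libraries. Over all genes, 84.4% of those higher at 3 weeks were higher at 3 months, and 73.1% of those lower were lower.

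In the Lsm ring 4 of 8 genes were higher at 3 weeks and 7 at 3 months, against 3 and 4 under both other scalings, and none was lower. Lsm1 was at 4.4, 2.68 and 3.17 FPKM in wild-type 3-week oocytes and at 9.66, 8.19 and 8.65 FPKM after deletion. At 3 months the wild-type libraries had 3.91, 4.49 and 3.39 FPKM and the deletion libraries 12.2, 12.5 and 12.7 FPKM. The deletion libraries were above all wild-type libraries of their age, with log2 fold changes of 1.17 ± 0.144 (SE, adjusted p = 6.99e-06) and 1.46 ± 0.144 (SE, adjusted p = 1.84e-07). Lsm2 was also higher in both models, by 0.65 and 0.71. Lsm4 was higher by 0.57 at 3 weeks, a call lost without any of 4 single libraries (wild-type 1 or 2, Zp3-Cre 2 or 3; log2 fold change 0.48 to 0.59), and by 0.95 at 3 months. The 3-week call of Lsm8 (0.89) was lost without wild-type library 1 or Zp3-Cre library 1 (0.68 and 0.7).

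In the other classes single genes stood out. Snrpb was at 9.35, 8.09 and 9.05 FPKM in wild-type 3-month oocytes and at 42.4, 33 and 36.3 FPKM in Gdf9-Cre oocytes (log2 fold change 1.95 ± 0.319 SE, adjusted p = 5.44e-05), the largest rise of a member there. At 3 weeks it was at 17.7, 15.6 and 17.1 FPKM in wild type, against 24.9, 21.9 and 27.3 FPKM after deletion, which did not pass (log2 fold change 0.53, adjusted p = 0.236). The SF3B subunit genes Sf3b5 and Sf3b6 were higher at 3 months by 0.94 and 1.43. Sf3b6 did not pass at 3 weeks (0.5, adjusted p = 0.147), and the 3-week call of Sf3b5 (0.63) was lost without wild-type library 2 or 3 (0.54 and 0.6). Among the lower genes, Prpf4b, a kinase of the spliceosome, went from 7.76, 7.08 and 6.27 to 4.58, 3.77 and 5.18 FPKM at 3 weeks, and from 8.53, 7.72 and 7.89 to 4.85, 5.45 and 3.97 FPKM at 3 months. Snrnp27, a tri-snRNP protein gene, had log2 fold changes of -0.54 and -0.46. Both genes had lower values in every deletion library than in any wild-type library of the same age.

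SR genes were mixed in GV oocytes. Of 10 SR genes 1 was higher and 2 lower at 3 weeks and 3 higher and 4 lower at 3 months; the other scalings gave 1 higher in each, with 3 lower at 3 weeks and 5 at 3 months. Srsf4 was higher in both models (log2 fold changes 0.45 and 0.55). Srsf2 was lower in both (-0.37 and -0.56), but its 3-week call was lost without any 1 of wild-type libraries 1, 2 and 3 and Zp3-Cre libraries 1 and 2 (log2 fold change -0.3 to -0.39). Srsf5 was lower by less (-0.39 and -0.3), a call lost without Zp3-Cre library 2 at 3 weeks (-0.31) and without wild-type library 1 or Gdf9-Cre library 1 or 2 at 3 months (-0.22 to -0.3). Sf3a1 had log2 fold changes of -0.31 and -0.26; the calls were lost without wild-type library 1, 2 or 3 or deletion library 2 or 3 at 3 weeks (-0.27 to -0.31) and without wild-type library 1, 2 or 3 or deletion library 1 or 2 at 3 months (-0.2 to -0.29). Deletion oocytes also held more RNA of 2-cell embryo markers (summed FPKM of 19 markers 79.67 to 104.6 against 40.73 to 47.52 at 3 weeks, and 116.7 to 174.5 against 39.86 to 53.67 at 3 months). Gdf9-Cre libraries held 17 to 19 of 24 granulosa and cumulus markers at 1 FPKM or more (summed FPKM 198.2 to 291.3). Wild-type 3-month libraries held 8 to 10 (149.2 to 158.7). Inha was at 63.3, 33.6 and 24 FPKM in Gdf9-Cre libraries against 2.23, 3.79 and 4.01 in wild type. Amh was at 32.4, 13.5 and 16.1 FPKM against 2.92, 2.7 and 3.92. Serpine2 went the other way, at 91.7, 97.9 and 89.2 FPKM against 110, 104 and 100. Tnfaip6 was at 0 in every GV library of both genotypes. Of 15 oocyte markers 6 were lower in each model, with 1 higher at 3 weeks and 3 at 3 months (summed FPKM 12670 to 13620 against 15190 to 15460, and 13230 to 13730 against 14180 to 14320). The summed FPKM of 14 oviduct and blood markers was 6.941 to 13.48 against 2.486 to 4.002 at 3 weeks and 30.38 to 45.21 against 2.988 to 3.303 at 3 months, where Krt8, an epithelial keratin, was at 41.2, 39.6 and 25.3 FPKM in Gdf9-Cre libraries. The part of all these markers in the results was not tested.

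No member differed between the 2 GV models in its response to deletion, or between wild-type oocytes of 3 weeks and 3 months, at an adjusted p under 0.05. The first test called 3.2% of all genes higher and 1.68% lower, and 9 members had an unadjusted p under 0.05 (smallest adjusted p 0.0743, for Snrpb). The second called 2.25% and 1.7%, and 12 members had an unadjusted p under 0.05 (smallest adjusted p 0.068, for Snrnp70). Fits that took their spread otherwise did call members: with the compared groups only, 6 members were higher in the first comparison, and 5 higher and 10 lower in the second; with limma's array weights, the counts were 8, and 5 and 11.

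**Figure D2:**
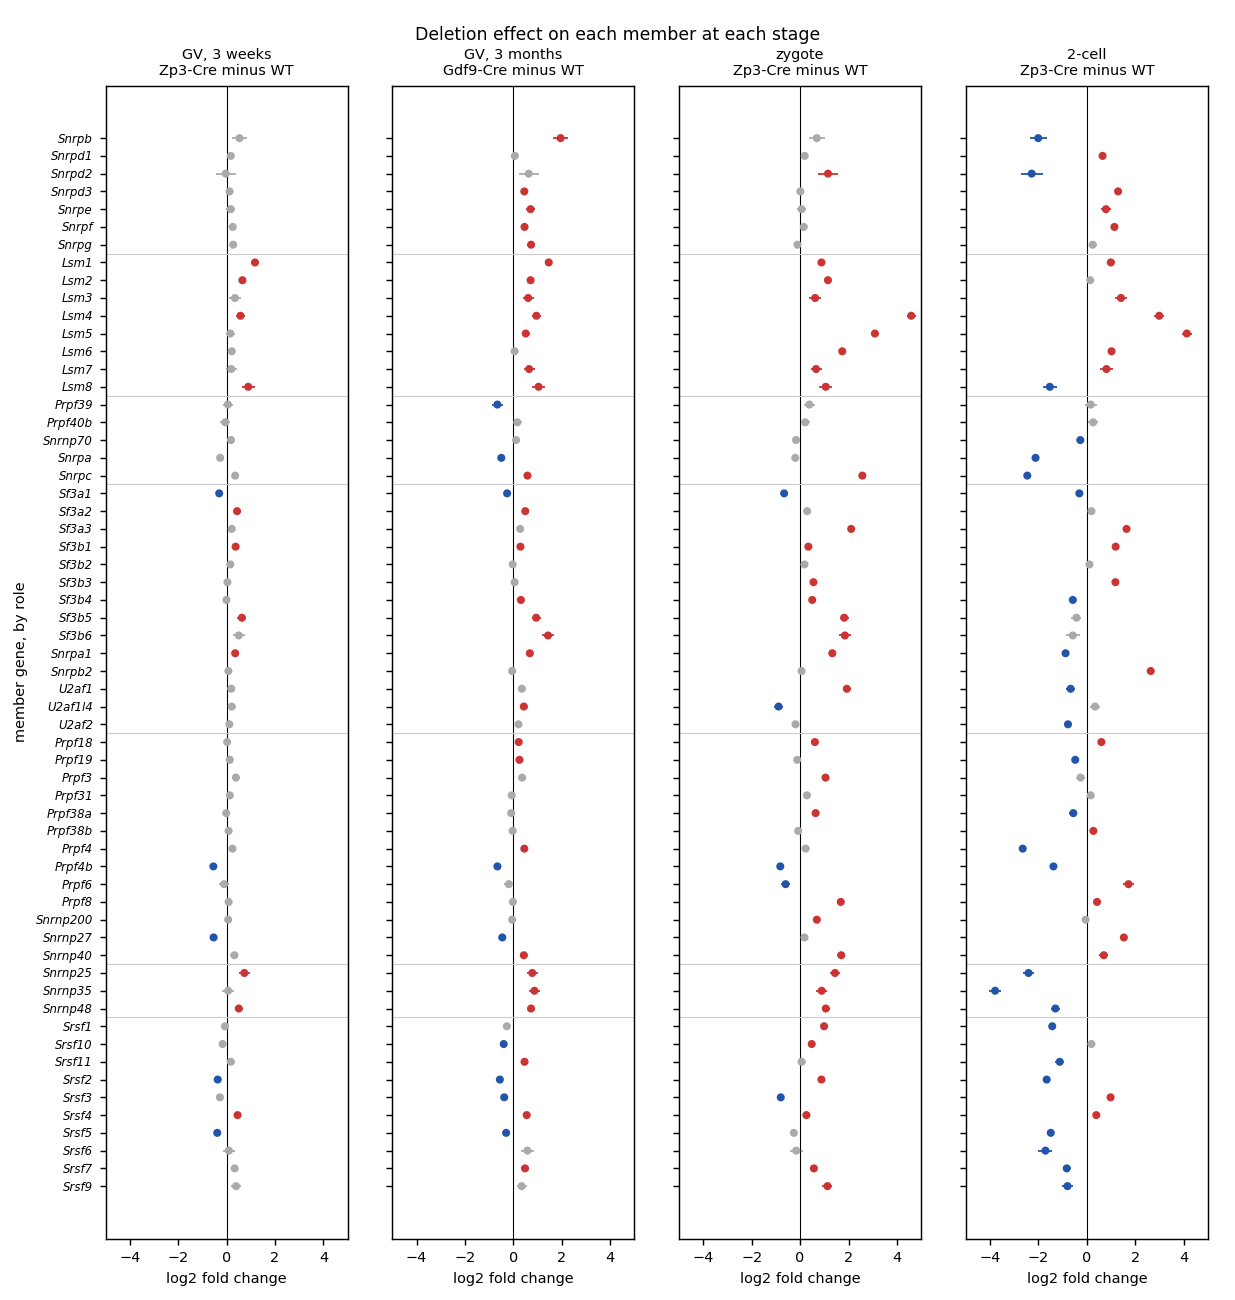
Log2 fold change on the log2(FPKM + 1) scale (deletion minus wild type, bars 1 SE) of 60 of the 61 tested members at each stage; red and blue mark members called higher and lower as deposited, grey those not called. The spread widens from GV oocytes to 2-cell embryos, where Lsm5 reached 4.13 and Snrnp35 -3.79; under median-of-ratios scaling the zygote values of Sf3b1, Sf3b3, Sf3b4, Srsf10 and Srsf4 change sign.

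In zygotes of Zp3-Cre females 33 of 61 members were higher than in wild-type zygotes and 6 lower, where 35.3% of all genes were higher and 11.4% lower. The median log2 fold change was 0.5 for the members and 0.22 for all genes. This balance depended on scaling: 19 members were higher and 23 lower under median-of-ratios scaling, and 19 and 12 with quantile normalization, which moved the all-gene median by -0.25 and -0.29. The all-gene shares higher and lower were then 20.4% and 29.2%, and 20.4% and 25.4%. In all 3 versions the same 19 members were higher and 6 lower. The 19 were Lsm2, Lsm4, Lsm5, Lsm6, Snrpc, 5 U2 genes, Prpf3, Prpf8, Snrnp40, the 3 minor spliceosome genes, Srsf1, Srsf2 and Srsf9, and no Sm gene was among them.

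Lsm4 showed the largest difference of any member. It was at 3.73, 1.41 and 1.58 FPKM in wild-type zygotes and at 65.7, 85.9 and 69.7 FPKM in deletion zygotes (log2 fold change 4.59 ± 0.192 SE, adjusted p = 2.34e-13). Deletion zygotes held about as much Lsm4 as deletion GV oocytes (63.1, 72.1 and 75.7 FPKM), and the change between these 2 stages did not pass (0.06 ± 0.192 SE, adjusted p = 0.8). Lsm5 was at 12.8, 16.9 and 10.5 FPKM in wild type, against 109, 122 and 127 FPKM after deletion (log2 fold change 3.09 ± 0.175 SE, adjusted p = 2.04e-11). Each deletion zygote was above every wild-type zygote for both genes. Lsm5 rose between deletion oocyte and zygote (0.7, adjusted p = 0.00151), as deposited the only member to fall in wild type and rise after deletion over this step. U2af1 did so too under both other scalings and in the fit without deletion 2-cell library 3. Lsm6 was higher by 1.74 and Lsm2 by 1.15. All 8 Lsm genes were higher as deposited, but 4 (Lsm2, Lsm4, Lsm5 and Lsm6) under either other scaling, and the calls of Lsm3 (0.62) and Lsm7 (0.66) were lost without single libraries: wild-type 2 or 3 or Zp3-Cre 1 or 2 for Lsm3 (0.48 to 0.56), wild-type 2 or Zp3-Cre 2 for Lsm7 (0.5 and 0.59).

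In the Sm ring only Snrpd2 passed, at 4.46, 4.27 and 3.46 FPKM in wild type and 15.6, 9.17 and 7.36 FPKM after deletion (log2 fold change 1.15, adjusted p = 0.0268). Its call was lost without wild-type library 2 or 3 or Zp3-Cre library 1 (1.18, 1.06 and 0.87) and under both other scalings, and under median-of-ratios scaling 5 of the 7 Sm genes were lower. Snrpd3, Snrpe, Snrpf and Snrpg had log2 fold changes of 0.01, 0.06, 0.15 and -0.11. Of the U1 genes Snrpc was higher, at 27.6, 27.5 and 21.8 FPKM after deletion against 3.62, 4.68 and 2.38 FPKM in wild type (log2 fold change 2.57 ± 0.14 SE, adjusted p = 1.11e-11), with no overlap.

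Among U2 genes 8 of 14 were higher and 2 lower, against 5 and 5 under median-of-ratios scaling and 5 and 3 with quantile normalization. Sf3a3 was at 8.15, 14 and 10.1 FPKM in wild type, against 48.5, 53.1 and 44.2 FPKM after deletion (log2 fold change 2.11 ± 0.138 SE, adjusted p = 1.78e-10). U2af1, which recognises the end of an intron, was at 31.1, 38.4 and 29.3 FPKM in wild type, against 132, 122 and 129 FPKM after deletion (log2 fold change 1.93). The deletion libraries were above all wild-type libraries for both. Sf3b6, which touches the branch site, Sf3b5 and Snrpa1, the U2 A' protein gene, were higher by 1.85, 1.82 and 1.33. U2af1l4, a relative of U2af1, was lower, at 14.9, 11.2 and 12 FPKM against 24.5, 22.3 and 25.9 FPKM (log2 fold change -0.89, adjusted p = 0.000225); it overlaps Psenen, whose reads cannot be told apart from its own. Sf3a1 was lower as well (-0.66).

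Of 13 genes of the U4/U6.U5 particle and later steps 6 were higher and 2 lower, against 3 and 5 under median-of-ratios scaling and 3 and 3 with quantile normalization. Snrnp40, a U5 protein gene, was at 12, 10.4 and 10 FPKM in wild type, against 30.5, 53.5 and 31.5 FPKM after deletion (log2 fold change 1.7). Prpf8 was at 15.1, 13.1 and 15.7 FPKM in wild type, against 46.8, 53.5 and 46.9 FPKM after deletion (log2 fold change 1.68 ± 0.12 SE, adjusted p = 6.06e-10). Deletion zygotes were thus above wild type in every library for both. Prpf3 was higher by 1.05. Prpf4b was lower (-0.82), and so was Prpf6, at 97.3, 83.3 and 96.9 FPKM against 142, 148 and 130 FPKM (log2 fold change -0.6, adjusted p = 0.0153), though its call was lost without wild-type library 2 or Zp3-Cre library 2 (-0.55 and -0.52).

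All 3 minor spliceosome genes were higher in deletion zygotes under every scaling. Snrnp25 was at 1.17, 0.828 and 0.264 FPKM in wild type, against 2.72, 4.32 and 4.09 FPKM after deletion (log2 fold change 1.44), and Snrnp48 at 5, 4.04 and 4.21 against 9.46, 9.9 and 11.5 FPKM (1.06). Snrnp35 was at 0.414, 0.585 and 0.375 FPKM in wild type, against 1.93, 0.854 and 2.63 FPKM after deletion (0.89). Of the SR genes 6 of 10 were higher and 1 lower as deposited, against 3 and 5 under median-of-ratios scaling and 3 and 4 with quantile normalization. Srsf9, Srsf1 and Srsf2, the 3 that stayed higher, had log2 fold changes of 1.13, 0.99 and 0.88. Srsf2 was at 13, 11.1 and 10.7 FPKM in wild type, against 20.6, 23.9 and 22 FPKM after deletion. Srsf3 was lower, at 30.2, 32.3 and 33.9 FPKM after deletion against 52.1, 57.9 and 60.3 FPKM in wild type (log2 fold change -0.8 ± 0.105 SE, adjusted p = 2.52e-06).

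The difference between the deletion effects in zygotes and in 3-week GV oocytes was tested directly. The effect was more positive in zygotes for 22 members and more negative for 2, where 22.4% and 7.01% of all genes were. Under median-of-ratios scaling the counts were 13 and 18, and with quantile normalization 14 and 6, with all-gene medians moved by -0.23 and -0.21. The all-gene shares were then 13.8% and 21.1%, and 13.3% and 13.7%. The 13 that were more positive in all 3 were Lsm4 (difference 4.02 ± 0.271 SE, adjusted p = 1.11e-09), Lsm5, Lsm6, Snrpc, Sf3a3, Sf3b5, Sf3b6, Snrpa1, U2af1, Prpf8, Snrnp40, Srsf1 and Srsf2. U2af1l4 and Srsf3 were more negative in all 3. From deletion GV oocyte to deletion zygote 15 members rose and 27 fell, where 21.9% and 43% of all genes did. Under the other scalings 25 rose and 21 fell, and 25 rose and 23 fell. The all-gene shares were then 31.2% and 33.6%, and 36.6% and 28.4%. As deposited, 26 of the 38 members that fell in wild type between oocyte and zygote also fell in deletion embryos, 11 did not pass there and 1, Lsm5, rose. Of all genes that fell in wild type, 76.2% also fell, 19.8% did not pass and 4.02% rose. Deletion zygotes also held more RNA of the 15 oocyte markers (summed FPKM 9171 to 10520 against 6003 to 6949), of which 13 were called higher and 1 lower, and a summed 129.1 to 133.6 FPKM of granulosa and cumulus markers against 77.15 to 85.92. Most of the latter sums was Serpine2, at 91.6, 92.6 and 84.6 FPKM against 60.9, 48.2 and 54.5 FPKM in wild type. Cyp19a1 was at 18.1, 18.6 and 21.8 FPKM against 13.9, 15.2 and 14 FPKM. Inha was at 0.34, 0.43 and 0 FPKM in deletion zygotes against 0.146, 0.137 and 0.132 FPKM in wild type. Foxl2 and Hsd17b1 were at 0 in every zygote library of both genotypes. Of the 24 granulosa and cumulus markers 6 to 9 reached 1 FPKM, against 5 in wild type. The part of the oocyte and granulosa markers in the results was not tested.

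In 2-cell embryos of Zp3-Cre females 22 members were higher than in wild type and 25 lower, where 37.1% of all genes were higher and 29.4% lower. The median log2 fold change was 0.11 for the members and 0.16 for all genes. Under median-of-ratios scaling 16 were higher and 29 lower, with quantile normalization 18 and 27, and in all 3 versions 15 were higher and 25 lower. The all-gene shares were 30.1% and 35.3% under the first scaling, and 37.8% and 29.6% under the second. Without deletion library 3 the counts were 23 and 23: 45 of the 47 calls were kept, those of Snrnp70 and Sf3a1 were lost, U2af1l4 was gained, and no member's log2 fold change moved by more than 0.57. The wild-type group had 2 libraries; where 1 was left out, the other was assumed to vary like the other groups.

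**Figure D3:**
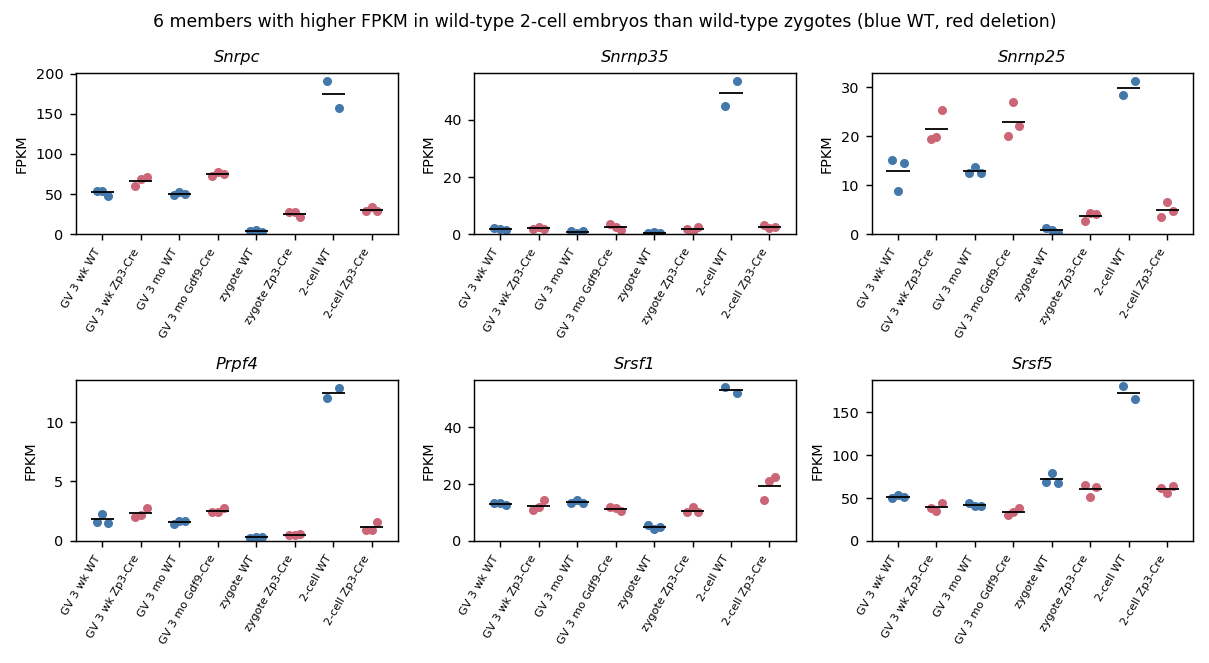
FPKM (linear axis) of 6 members in each library (points, with a bar at the group mean), chosen among those that rose from zygote to 2-cell embryo in wild type. All 6 were also called lower in deletion 2-cell embryos, and both wild-type 2-cell libraries lie above all deletion 2-cell libraries. Snrnp35, for example, was at 44.9 and 53.7 against 2.25 to 3.25. Some other members that rose in wild type, such as Lsm4 and Lsm6, were called higher in deletion 2-cell embryos.

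All 3 minor spliceosome genes were lower in deletion 2-cell embryos, Snrnp35 by more than any other member. Snrnp35 was at 44.9 and 53.7 FPKM in wild-type 2-cell embryos and at 3.25, 2.25 and 2.44 FPKM in deletion embryos (log2 fold change -3.79 ± 0.26 SE, adjusted p = 1.71e-10). Snrnp25 was at 28.5 and 31.3 FPKM in wild type, against 3.5, 6.65 and 4.77 FPKM after deletion (log2 fold change -2.41). Snrnp48 was at 12.1 and 10.4 FPKM in wild type, against 3.76, 3.22 and 5.06 FPKM after deletion (log2 fold change -1.3). No library of one group reached the other for any of the 3, and all were lower under each scaling. Between deletion zygotes and 2-cell embryos Snrnp35 and Snrnp25 did not pass (0.42, adjusted p = 0.137, and 0.33, adjusted p = 0.227), and Snrnp48 fell (-1.18).

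Snrpc was at 191 and 157 FPKM in wild type, against 29.2, 33.6 and 29.3 FPKM in deletion embryos (log2 fold change -2.46 ± 0.156 SE, adjusted p = 5.6e-11). Snrpa, the U1 A protein gene, was at 58.4 and 62.6 FPKM in wild type, against 12.8, 11.9 and 14.8 FPKM after deletion (log2 fold change -2.12). The deletion values of both were below the wild-type values in every library. Snrnp70 was lower by little (-0.27, adjusted p = 0.0444), its groups overlapped, and the call was lost without any 1 of wild-type libraries 1 and 2 and deletion libraries 2 and 3 (-0.12 to -0.31). None of the 6 U1 genes was higher under any scaling; 3 were lower as deposited and 4 under each other scaling.

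The Sm ring was split again. Snrpb was at 45.8 and 35.5 FPKM in wild type, against 8.33, 4.37 and 20.7 FPKM after deletion (log2 fold change -2.01), and Snrpd2 at 114 and 97.2 against 28.7, 6.32 and 47.1 FPKM (-2.28). Deletion library 3 had the highest value of its group for both, and library 2 the lowest. Without library 2 the log2 fold change of Snrpd2 was -1.49 (adjusted p = 2.74e-05). Snrpd1, Snrpd3, Snrpe and Snrpf were higher, by 0.65, 1.29, 0.79 and 1.14; under both other scalings 3 Sm genes were higher and 2 lower. Snrpd3 was at 95.3 and 89.5 FPKM in wild type, against 222, 269 and 199 FPKM after deletion.

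SR genes were mostly lower: 7 of 10 under each scaling, with 2 higher as deposited and 1 under the others. Srsf1 was at 54.2 and 52 FPKM in wild type, against 14.6, 21.1 and 22.6 FPKM after deletion (log2 fold change -1.43). Srsf2 was at 98.8 and 74.1 FPKM in wild type, against 22.6, 24.8 and 32.5 FPKM after deletion (-1.66), and overlaps Mfsd11 in the annotation. Srsf5 was at 180 and 165 FPKM in wild type, against 62.2, 55.9 and 64.5 FPKM after deletion (-1.49 ± 0.121 SE, adjusted p = 1.86e-09). The groups did not overlap for any of the 3. Srsf6, Srsf11, Srsf7 and Srsf9 were lower too, with log2 fold changes of -1.71, -1.12, -0.83 and -0.8, with Srsf6 at 2.71, 2.62 and 9.36 FPKM in deletion libraries 1 to 3. Srsf3 was higher (0.98), at 32.6, 40.4 and 31.2 FPKM against 16.2 and 17.8 FPKM.

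**Figure D4:**
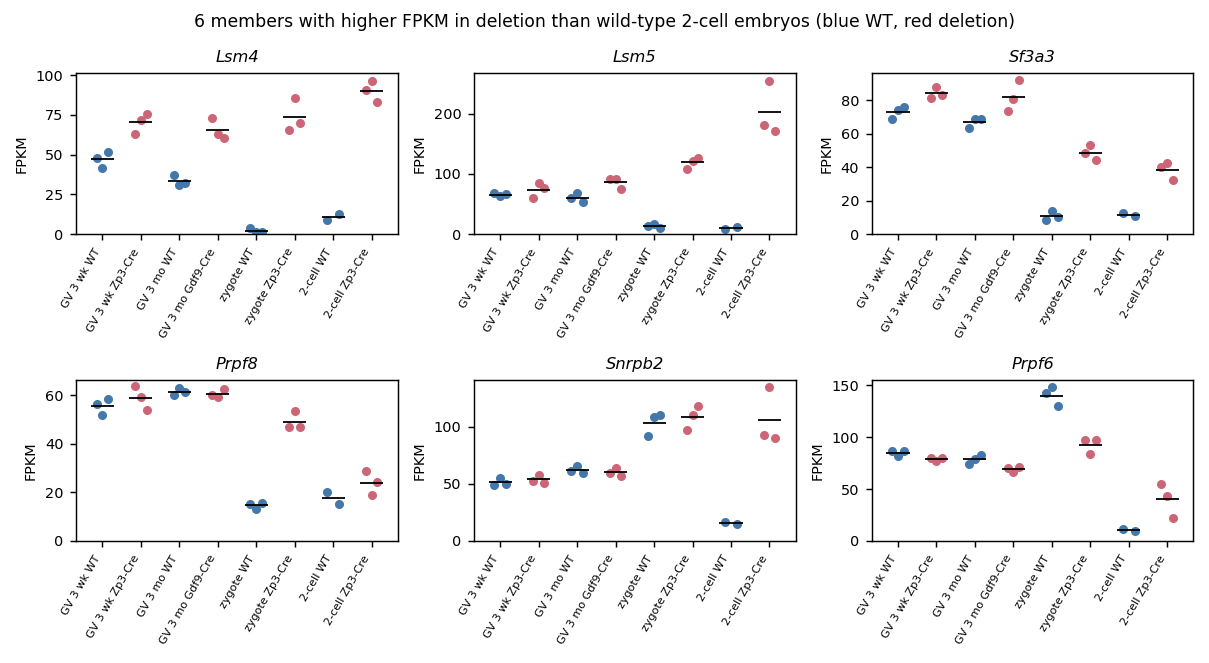
FPKM (linear axis) of 6 members in each library (points, with a bar at the group mean), chosen among those called higher in deletion than in wild-type 2-cell embryos. Lsm5 reached 171 to 255 in deletion 2-cell embryos against 8.68 and 12.6 in wild type, while the groups overlap for Prpf8.

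Of the Lsm genes 6 of 8 were higher in deletion 2-cell embryos and 1 lower, against 5 and 1 under each other scaling. Lsm5 was at 8.68 and 12.6 FPKM in wild type, against 182, 255 and 171 FPKM after deletion (log2 fold change 4.13 ± 0.195 SE, adjusted p = 1.04e-12), the largest rise of a member. Lsm4 was at 8.64 and 12.5 FPKM in wild type, against 90.9, 96.5 and 83.1 FPKM after deletion (log2 fold change 2.99). Both were above wild type in each deletion library. The 2 genes differed in their course: in wild type Lsm4 rose from zygote to 2-cell embryo (1.89) and Lsm5 did not pass (-0.31, adjusted p = 0.176), and between deletion zygotes and 2-cell embryos Lsm5 rose (0.73) and Lsm4 did not pass (0.29, adjusted p = 0.211). Lsm3 and Lsm6 were higher by 1.41 and 1.02. Lsm8 was the one that was lower, at 7.42, 9.29 and 9.14 FPKM against 30.2 and 23.6 FPKM (-1.53, adjusted p = 0.000119).

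U2 genes divided 4 higher to 5 lower, against 4 to 7 and 4 to 6 under the other scalings. Snrpb2 was at 16.8 and 15 FPKM in wild type, against 92.9, 135 and 90.3 FPKM after deletion (log2 fold change 2.64 ± 0.137 SE, adjusted p = 4.02e-12). Sf3a3 was at 12.4 and 10.8 FPKM in wild type, against 40.2, 42.6 and 32.5 FPKM after deletion (1.64). Deletion embryos were above wild type in all libraries for both, and Sf3b1 and Sf3b3 were higher by 1.19 and 1.18. Snrpa1, U2af2, U2af1 and Sf3b4 were lower (-0.88, -0.78, -0.67 and -0.58); U2af1 was at 96.3 and 91.6 FPKM in wild type, against 67.2, 74.7 and 39.8 FPKM after deletion. Sf3a1 was lower by little (-0.31) with overlapping groups, and its call was lost without wild-type library 2 or deletion library 2 or 3 (-0.23 to -0.25).

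In the U4/U6.U5 class 6 genes were higher and 4 lower as deposited, against 3 and 5 under median-of-ratios scaling and 5 and 4 with quantile normalization. Prpf4 was at 12 and 12.9 FPKM in wild type, against 0.917, 0.945 and 1.63 FPKM after deletion (log2 fold change -2.65 ± 0.153 SE, adjusted p = 1.5e-11), and Prpf4b at 14.1 and 11.8 against 4.53, 3.43 and 5.18 FPKM (-1.38). Prpf6 was at 11.5 and 9.81 FPKM in wild type, against 54.8, 43.3 and 21.8 FPKM after deletion (1.72), and Snrnp27 at 45.2 and 38.2 against 121, 161 and 93.3 FPKM (1.53). None of these 4 overlapped between groups, though library 3 lay nearest to wild type for Prpf6 and Snrnp27. Prpf8 overlapped (20 and 15.2 against 28.7, 19.1 and 24.4 FPKM) and its call (0.42) was lost without wild-type library 2 or deletion library 1 (0.23 and 0.29).

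The change in the deletion effect from zygote to 2-cell embryo, tested directly, was more negative for 32 members and more positive for 11, where 32.4% and 21.5% of all genes were. The other scalings gave 28 and 18, and 28 and 15, with all-gene medians moved by 0.17 and 0.33, and 26 members were more negative and 10 more positive in all 3. The all-gene shares more negative and more positive were then 29.6% and 30.2%, and 25.9% and 35.7%. Without deletion 2-cell library 3 the counts were 31 and 14. The largest were those of Snrpc (-5.03 ± 0.209 SE, adjusted p = 6.16e-13) and Snrnp35 (-4.68 ± 0.349 SE, adjusted p = 1.29e-09) in one direction and Snrpb2 (2.58 ± 0.184 SE, adjusted p = 7.52e-10) and Prpf6 (2.32 ± 0.289 SE, adjusted p = 1.16e-06) in the other. As deposited, 14 of the 33 members called higher in deletion zygotes were lower in deletion 2-cell embryos, as were 21.5% of all genes higher in zygotes: Snrpd2, Lsm8, Snrpc, Sf3b4, Snrpa1, U2af1, Prpf38a, Snrnp25, Snrnp35, Snrnp48, Srsf1, Srsf2, Srsf7 and Srsf9. Of these, 9 had both calls in all 3 scalings; Snrpd2, Lsm8, Sf3b4, Prpf38a and Srsf7 lost the zygote call, and Sf3b4 turned to -0.09 there under median-of-ratios scaling. A further 13 of the 33 were higher at both stages as deposited, against 58% of all genes higher in zygotes, but 4 (Lsm4, Lsm5, Lsm6 and Sf3a3) in all 3 scalings. The zygote values of 3 others turned negative under median-of-ratios scaling, Sf3b1 to -0.26, Sf3b3 to -0.03 and Srsf4 to -0.34. Under that scaling 19 members were higher in zygotes, of which 12 were lower in 2-cell embryos and 4 higher. Of all genes higher in zygotes 25% were lower there and 53.6% higher. With quantile normalization 10 and 6 of 19 members were, against 19.5% and 62.2% of all genes higher in zygotes. Without deletion 2-cell library 3 there were 15 members in the first group, with Snrpb added, and 13 in the other. In that fit 34 members were higher in zygotes, and of all genes higher there 25.1% and 53.9% belonged to these groups. Of the 14, Prpf38a lost its 2-cell call without wild-type library 1 (-0.39), and Snrpd2 its zygote call as given above; without deletion 2-cell library 2 the change for Snrpd2 was -2.64 instead of -3.43.

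Of the 33 members that rose from zygote to 2-cell embryo in wild type, 13 also rose in deletion embryos, 17 did not pass and 3 fell, where the shares of all genes that rose were 52.2%, 42.4% and 5.36%. Of the 15 that fell in wild type, 10 fell, 4 did not pass and 1 rose, where the shares of all genes that fell were 51.4%, 40.3% and 8.29%. Without deletion 2-cell library 3 these counts were 12, 17 and 4, and 9, 5 and 1. The all-gene shares were then 42.3%, 51.3% and 6.44%, and 48.8%, 41.8% and 9.35%. In deletion embryos as such 19 members rose over this step and 18 fell, against 32.7% and 17.3% of all genes (17 and 20 under median-of-ratios scaling, 15 and 18 with quantile normalization, and 17 and 17 without library 3). The all-gene shares were 27.9% and 19.5% under median-of-ratios scaling, and 22% and 23.1% with quantile normalization. Markers of the 2-cell stage moved alongside: their summed FPKM over 19 genes in 2-cell embryos was 459.6 to 579.8 for wild type and 82.13 to 91.19 after deletion, and 18 of them were called lower. Oocyte markers had summed values of 1859 to 2214 and 6055 to 6400 FPKM, and all 15 were called higher. The part of these markers' differences in the results was not tested.

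**Figure D5:**
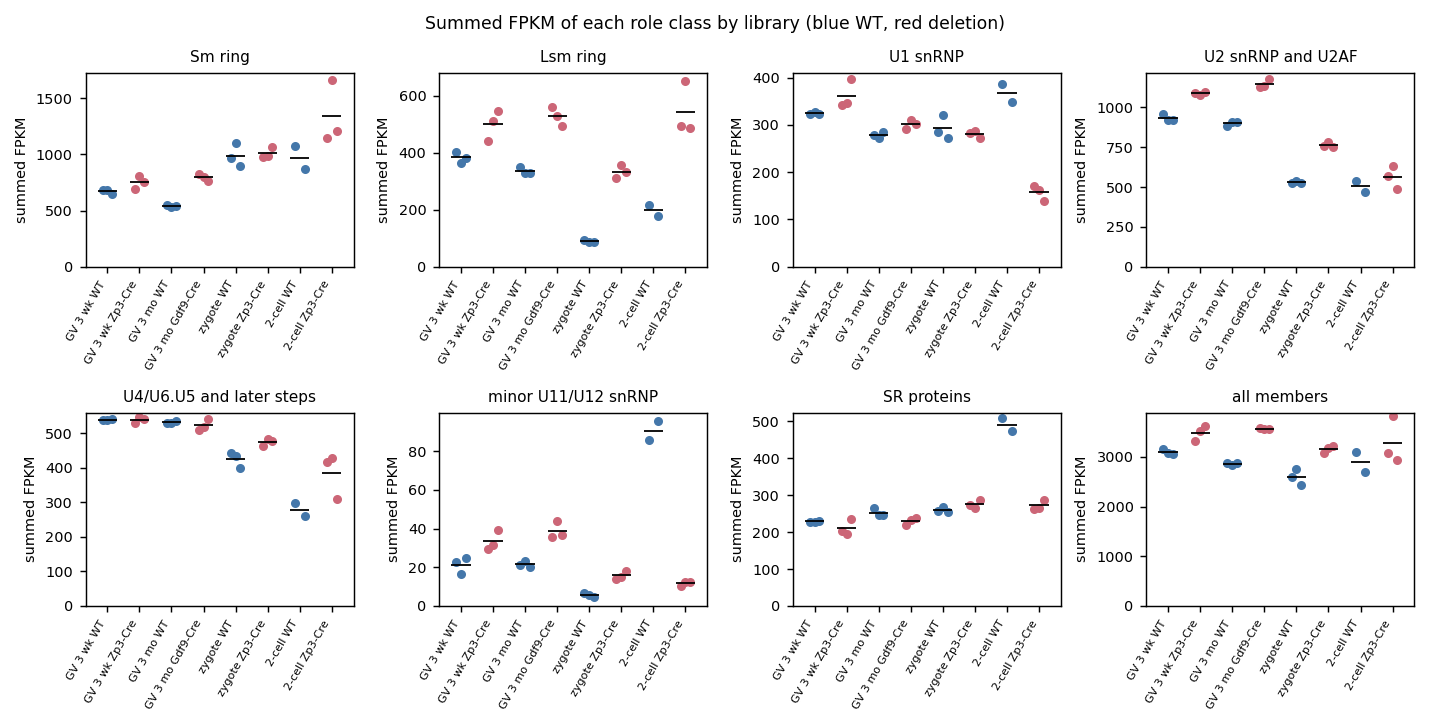
Summed FPKM of the members of each role class in each library (points, linear axis from 0, FPKM as deposited), with a bar at the group mean. Wild-type 2-cell embryos had SR sums of 473.3 and 508.6 against 263 to 288.1 in deletion embryos, while the Lsm sum was higher in deletion embryos at both stages.

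Summed over a class, these differences partly cancelled. All members together made up 2438 to 2748 FPKM in wild-type and 3078 to 3208 FPKM in deletion zygotes, and 2696 to 3106 and 2936 to 3821 FPKM in 2-cell embryos, where the ranges overlapped. The Lsm sum was 86.18 to 94.91 FPKM in wild-type and 310 to 357.3 FPKM in deletion zygotes, and 178.1 to 217.8 and 486.9 to 651.6 FPKM in 2-cell embryos. In the other direction, the U1 sum was 349.2 to 387 FPKM in wild-type and 139.9 to 170.8 FPKM in deletion 2-cell embryos, and the minor snRNP sum 85.58 to 95.37 and 10.51 to 12.28 FPKM. At the 2-cell stage only the U2 class had FPKM sums that overlapped between genotypes (wild type 470.1 to 537, deletion 485.7 to 633.6). Taken as a percentage of each library's FPKM total, the U4/U6.U5 sums overlapped too. Wild-type libraries 1 and 2 had 0.0889% and 0.0877%, and deletion library 3 lay below both at 0.0863%. Deletion libraries 1 and 2 lay above them, at 0.119% and 0.112%. The separation of the U4/U6.U5 sums thus depended on scaling. The sums include deletion library 3 and are descriptions, with no test.

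Other genes of the splicing pathway were counted in lists. The list for the SMN complex, Sm ring assembly and import of small nuclear RNAs held 22 genes. Of these, 14 were higher and 1 lower in deletion zygotes and 8 higher and 10 lower in deletion 2-cell embryos (zygote 6 and 6, 2-cell 7 and 11, under median-of-ratios scaling). Wdr77, a subunit of the methyltransferase that modifies Sm proteins, had 21.94 FPKM in wild-type and 1.119 FPKM in deletion 2-cell embryos (means; log2 fold change -3.51), and Coil, which encodes the Cajal body protein coilin, 30.24 and 2.649 FPKM (-3.11). Of 39 Prp19 complex and catalytic-step genes 20 were higher and 4 lower in deletion zygotes, and 18 and 11 in 2-cell embryos, but 8 and 13, and 5 and 13, under median-of-ratios scaling. Ppil1 of this list was at 47 and 42.9 FPKM in wild-type 2-cell embryos and at 2.35, 1.26 and 5.61 FPKM after deletion. Cdc5l, a core Prp19 complex subunit, had means of 29.41 and 4.422 FPKM in wild-type and deletion 2-cell embryos (-2.61). Of 8 further minor spliceosome genes 5 were higher and none lower in zygotes, and 5 and 3 in 2-cell embryos (2 and 1, and 5 and 3, under median-of-ratios scaling). Zcrb1, a U11/U12 protein gene, was at 7.135 and 141 FPKM in zygotes (4.12) and at 38.71 and 318.8 FPKM in 2-cell embryos (3.01), in the opposite direction to Snrnp25, Snrnp35 and Snrnp48 at the latter stage.

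Among 23 tested SR-related proteins and SR kinases 6 were higher and 10 lower in deletion zygotes, and 10 and 10 in 2-cell embryos (5 and 17, and 7 and 11, under median-of-ratios scaling), where Tnpo3, the importin of SR proteins, was at 40.68 FPKM in wild type and 2.752 FPKM after deletion (log2 fold change -3.57). Of 11 exon junction and cap-binding genes 6 were higher and 1 lower in zygotes, and 3 and 7 in 2-cell embryos (4 and 3, and 2 and 7, under median-of-ratios scaling), with the cap-binding subunit Ncbp1 at 57.42 and 3.241 FPKM (-3.8). The 14 U2-associated genes gave 7 higher and 1 lower, then 3 and 8 (4 and 5, then 2 and 9, under median-of-ratios scaling), with the branch-site protein gene Sf1 at 66.4 and 11.45 FPKM in 2-cell embryos (-2.49). Of 31 hnRNP genes, whose products often oppose SR proteins, 7 were higher and 14 lower in zygotes, and 14 and 14 in 2-cell embryos (3 and 24, and 6 and 16, under median-of-ratios scaling). The 2-cell counts include deletion library 3. The counts outside parentheses or before "but" are as deposited and stand against 35.3% and 11.4% of all genes in zygotes and 37.1% and 29.4% in 2-cell embryos. The median-of-ratios counts stand against 20.4% and 29.2% in zygotes and 30.1% and 35.3% in 2-cell embryos.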

How the data were processed

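RNA sequencing of mouse GV oocytes, zygotes and 2-cell embryos was analysed from the FPKM values per gene and library that the authors deposited (23 libraries, 8 groups; groups from the labels). Per the submitters' processing notes the tools included CASAVA 1.4, TopHat2 2.0.12, Cufflinks 2.2.1 and SAMtools, and the builds mm10 and mm9; neither the build behind the FPKM values nor a strand setting is named. Per the labels' protocols, RNA was purified with an RNeasy micro kit and libraries made with the NEBNext Ultra RNA kit. FPKM per library without read totals gives no counting error, so low values are imprecise.

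From these, log2(FPKM + 1) was fitted with limma 3.58.1 in R 4.3.3 (8 group means, trended variance, 15 residual degrees of freedom) over the 13776 genes at 1 FPKM or more in at least 2 libraries, with Benjamini-Hochberg adjustment over all of them and a threshold of 0.05; the fit was tested on simulated data. Alternatives were a pseudocount of 0.1, no filter or a filter at 5 FPKM, median-of-ratios scaling, quantile normalization, the compared groups only, array weights, the replicate number as a block, and leaving out each library. Whether same-numbered libraries were paired is not stated. Their deviations correlated between -0.069 and 0.079, which showed no strong shared effect but cannot exclude pairing. Members were named by largest change and, within each role, by highest mean FPKM, and genes of the other lists by largest change at a mean of 5 FPKM or more. The members and lists were chosen with earlier results of these data known. Most called members had groups that did not overlap, such as 55 of 55 from wild-type GV oocyte to zygote and 44 of 47 after deletion in 2-cell embryos. Statements that groups did not overlap therefore describe the values and add no support to a call. The share of all genes without overlap was not counted. Promoter windows were read from RefSeq (GRCm38.p6) by symbol. Bisulfite data were not analysed here. The values of 1 member are not reported here, though it stayed in the fits and counts.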

Additional observations from a re-analysis of the deposited data

Results flagged for a closer look

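The effect of Cxxc1 deletion differed between 3-week GV oocytes and zygotes for 24 members, by limma's test of the difference itself at an adjusted p under 0.05. Values are the log2 effect in zygotes minus that in GV oocytes. Among Lsm ring genes it was 0.51 for Lsm2, 1.53 for Lsm6, 2.94 for Lsm5 and 4.02 for Lsm4. For U1 genes the difference was 2.22 for Snrpc. Among U2 and U2AF genes it was -1.1 for U2af1l4, 0.51 for Sf3b3, 0.51 for Sf3b4, 0.98 for Snrpa1, 1.19 for Sf3b5, 1.35 for Sf3b6, 1.74 for U2af1 and 1.9 for Sf3a3. For U4/U6.U5 and later-step genes the difference was 0.59 for Prpf18, 0.63 for Snrnp200, 0.66 for Prpf38a, 0.68 for Prpf3, 0.72 for Snrnp27, 1.38 for Snrnp40 and 1.6 for Prpf8. Among SR protein genes it was -0.52 for Srsf3, 0.66 for Srsf10, 1.07 for Srsf1 and 1.25 for Srsf2. Leaving out 1 library ended 5 of these calls. They were those of Lsm2 (0.4 to 0.5; without GV wild-type 1 or 2, GV Zp3-Cre 1 or 2, zygote wild-type 1, or zygote Zp3-Cre 2 or 3), Prpf3 (0.52 to 0.62; GV Zp3-Cre 2, zygote wild-type 3 or zygote Zp3-Cre 2) and Prpf38a (0.58 to 0.6; GV wild-type 2, zygote wild-type 2 or zygote Zp3-Cre 3). Sf3b3 (0.3 to 0.52) lost its call without any GV wild-type library, GV Zp3-Cre 1 or 3, zygote wild-type 2 or zygote Zp3-Cre 2. Sf3b4 (0.39 to 0.53) lost it without any GV wild-type library, GV Zp3-Cre 2, zygote wild-type 2 or 3, or zygote Zp3-Cre 1 or 2. Under median-of-ratios scaling 18 of the 61 members were more negative in zygotes than in GV oocytes, against 2 as deposited.

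The effect differed in the same way between zygotes and 2-cell embryos for 43 members. Values are the log2 effect in 2-cell embryos minus that in zygotes. The Sm ring genes had -3.43 for Snrpd2, -2.7 for Snrpb, 0.73 for Snrpe, 0.99 for Snrpf and 1.28 for Snrpd3. In the Lsm ring class the difference was -2.59 for Lsm8, -1.59 for Lsm4, -1.02 for Lsm2, -0.72 for Lsm6 and 1.04 for Lsm5. The U1 genes had -5.03 for Snrpc and -1.92 for Snrpa. In the U2 and U2AF class the difference was -2.6 for U2af1, -2.42 for Sf3b6, -2.25 for Sf3b5, -2.21 for Snrpa1, -1.09 for Sf3b4, -0.59 for U2af2, 0.63 for Sf3b3, 0.85 for Sf3b1, 1.22 for U2af1l4 and 2.58 for Snrpb2. The U4/U6.U5 and later-step genes had -2.88 for Prpf4, -1.31 for Prpf3, -1.26 for Prpf8, -1.2 for Prpf38a, -1 for Snrnp40, -0.73 for Snrnp200, -0.56 for Prpf4b, -0.36 for Prpf19, 1.35 for Snrnp27 and 2.32 for Prpf6. In the minor spliceosome class the difference was -4.68 for Snrnp35, -3.85 for Snrnp25 and -2.36 for Snrnp48. The SR protein genes had -2.54 for Srsf2, -2.42 for Srsf1, -1.93 for Srsf9, -1.55 for Srsf6, -1.4 for Srsf7, -1.22 for Srsf5, -1.18 for Srsf11 and 1.78 for Srsf3. Deletion 2-cell library 3, which stood apart from its group, enters all these values. Without it 42 of the 43 calls were kept, Prpf19 lost its call, and no member's value moved by more than 0.57. With 2 or 3 libraries in a group, single outlying values of a member were not tested. Here 3 calls ended without 1 library: those of Prpf19 (-0.28 to -0.37; without zygote wild-type 2, zygote Zp3-Cre 2, either wild-type 2-cell library, or 2-cell Zp3-Cre 1 or 3), Prpf4b (-0.42 to -0.52; zygote wild-type 3, zygote Zp3-Cre 3, 2-cell wild-type 1 or 2-cell Zp3-Cre 2) and Snrpe (0.47 to 0.62; zygote wild-type 2, zygote Zp3-Cre 1, 2-cell wild-type 2 or 2-cell Zp3-Cre 2).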

How the results depend on the processing

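Counts of members called higher or lower moved by over 1.5 times under some settings; the cause was not tested. Under median-of-ratios scaling higher calls were 5 at 3-week GV deletion, 12 at 3-month GV deletion, 19 in zygote deletion, 27 for wild-type GV to zygote, 25 for deletion GV to zygote, 13 for the zygote minus GV effect and 18 for the 2-cell minus zygote effect, and lower calls were 23 in zygote deletion and 18 for the zygote minus GV effect. Quantile normalization gave 16 higher (3-month GV), 19 higher and 12 lower (zygote), 24 lower (wild-type zygote to 2-cell), 25 higher (deletion GV to zygote), and 14 higher and 6 lower (zygote minus GV effect). With the compared groups only, 17 were higher at 3-week GV deletion, 5 lower for the zygote minus GV effect, 6 higher between GV models, and 5 higher and 10 lower between wild-type ages; array weights gave 5, 8, and 5 and 11 for the last 3 comparisons. Leaving out single libraries gave, higher then lower, 6 to 10 and 2 to 5 (3-week GV; lowest without wild-type 2 and without Zp3-Cre 2), 21 to 24 and 8 to 9 (3-month GV), 30 to 36 and 4 to 6 (zygote), 20 to 23 and 23 to 25 (2-cell), 16 to 18 and 37 to 39 (wild-type GV to zygote), 29 to 35 and 14 to 15 (wild-type zygote to 2-cell), 15 to 16 and 27 to 28 (deletion GV to zygote), 17 to 20 and 16 to 22 (deletion zygote to 2-cell), 19 to 23 and 2 to 3 (zygote minus GV effect), 10 to 14 and 30 to 32 (2-cell minus zygote effect), and 0 to 0 for the GV model and wild-type age comparisons. With the replicate number as a block the counts were 12 and 5, 29 and 9, 33 and 5, 22 and 24, 17 and 38, 33 and 15, 15 and 27, 19 and 18, 22 and 2, 12 and 32, and 0 in the GV model and wild-type age comparisons, in the same order of comparisons. Since the labels do not state whether the numbers pair libraries, this block is given only for completeness. Signs turned for single members: under median-of-ratios scaling Prpf18 to -0.02 (3-month GV); Sf3b1 to -0.26, Sf3b3 to -0.03, Sf3b4 to -0.09, Srsf10 to -0.11 and Srsf4 to -0.34 (zygote); Prpf38b to -0.01 (2-cell); Lsm7 to 0.05, Prpf18 to 0.44, Prpf19 to 0.54, Sf3a1 to 0.2, Sf3b2 to 0.52, Sf3b4 to 0.31, Snrnp48 to 0.29 and U2af2 to 0.31 (wild-type GV to zygote); Prpf18 to -0.11 and U2af2 to -0.03 (wild-type zygote to 2-cell); Sf3b2 to 0.06, Snrnp70 to 0.11 and Snrpa1 to 0.02 (deletion GV to zygote). Under quantile normalization they were Prpf18 0.48, Prpf19 0.71, Sf3b4 0.12, Snrnp48 0.63 and Srsf9 0.15 (wild-type GV to zygote), Lsm1 -0.32, Prpf18 -0.23 and Prpf19 -0.25 (wild-type zygote to 2-cell), Prpf19 0.09 (deletion GV to zygote) and Prpf19 0.12 (2-cell minus zygote effect). Calls kept in every alternative numbered 5 of 16, 17 of 40, 23 of 39 and 35 of 47 in the 4 deletion comparisons, in order of stage. Depth limits members near 1 FPKM, such as Prpf4 and Snrnp35 in zygotes.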
